A study of Mus musculus with 10 samples.

Results

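Peaks of N6-methyladenosine (m6A) in mouse liver were compared between day 1 and 1 week after birth. The day 1 table held 10161 peaks in 6336 genes and the 1-week table held 9070 peaks in 5527 genes, together 19231 of the 32804 peaks in the 4 distinct tables of the series. The paper reports more peaks than this at both ages, in nearly the same numbers of genes. The reason for the difference was not tested, and the counts of peaks without a counterpart depend on the peaks listed. All peaks of both tables were used, and 2 peaks were called shared where they lay on the same chromosome and strand and their spans had at least 1 base in common. The samples were livers of wild-type C57BL/6J mice, with 1 Input sample (fragmented RNA) and 1 IP sample (RNA after pull-down with an antibody against m6A) listed at each age. The labels describe the RNA as purified mRNA, whereas the methods describe total RNA from which ribosomal RNA was removed. The study followed m6A through postnatal liver maturation at day 1 and at 1, 2, 4 and 8 weeks. The 4-week table repeated that of 2 weeks peak for peak, and both were counted once, as the 2-week table. According to the methods, 2 individuals were taken per age, and the sources used here do not say how these were combined into 1 table. There was thus 1 table per age and no spread between replicates, so no difference between the ages could be tested. Shares are given with 95% Wilson intervals, which cover counting error only. The sex of the animals is not given in the labels, and the tables hold no read totals, so library depth is unknown here.

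The m6A mark is written on mRNA by a methyltransferase complex built around Mettl3 and Mettl14, removed by the demethylases Fto and Alkbh5, and read by proteins of the YTH and Igf2bp families, which affect splicing, stability and translation of the mRNA. It is laid mainly on the consensus word GGAC and is best known near stop codons and in long internal exons. In the days after birth the mouse liver stops making blood cells and takes up the metabolic work of the adult organ, so its RNA comes from a changing mixture of hepatocytes and blood-forming cells. In such bulk samples, fewer cells of a type and less RNA per cell cannot be told apart, and a gene without a peak may lack the mark, lack the RNA or have missed the caller's threshold.

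The sequences below show the GGAC word nearest to the middle of the peak in genes picked for their high folds. They come from 4 genes with a peak at day 1 only, 4 with a peak at 1 week only and 4 with strong overlapping peaks at both ages. Each stretch is printed 5′ to 3′ on the strand of the RNA with that GGAC alone in capitals, in mm10 coordinates counted from 1. The stretches of Ncoa2, Rreb1 and Bmp10 hold a further GGAC, which is left in lower case. The 4 from day 1 only lay in Ppp4r2 (chr6:100865992-100866020, exon 8), Tdrd3 (chr14:87506260-87506288, exon 11), Arhgap29 (chr3:122014537-122014565, exon 23) and Syt14 (chr1:192930671-192930699, exon 7), each time in coding sequence.
Ppp4r2: ccctcctgacaaGGACagagaaagtcgaa
Tdrd3: agaggaaaccacGGACaatgaatagtgaa
Arhgap29: tgggaataacagGGACcatcccggcagta
Syt14: agcatccagagaGGACcatgccctgtctt
The 4 from 1 week only lay in coding sequence of Adgrl2 (chr3:148817187-148817215, exon 23), Ncoa2 (chr1:13174471-13174499, exon 11), Sgo1 (chr17:53679154-53679182, exon 7) and Exoc3 (chr13:74192882-74192910, exon 4). Tiparp came before Sgo1 by its fold but held no GGAC in its peak.
Adgrl2: gacgtccgggaaGGACagatgcagctggt
Ncoa2: cagctccttgtcGGACacaaacaaggact
Sgo1: ttaatctaaaagGGACggtccaccccacc
Exoc3: gtttgccatcttGGACagaactgtgacaa
The 4 shared ones lay in coding sequence of Rreb1 (chr13:37932185-37932213, exon 10), Tnrc18 (chr5:142771780-142771808, exon 7) and Bmp10 (chr6:87433910-87433938, exon 2) and in the 3′ UTR of Zfp809 (chr9:22239368-22239396).
Rreb1: tgctgtggacctGGACtccagtggggagt
Tnrc18: ccctggagttggGGACacagctgacaccc
Bmp10: aaaccaagctgaGGACaccggaaggggac
Zfp809: cacaatcccacaGGACgagcagttacgaa
The peak of Hnf4a, a master regulator of hepatocyte genes that was called at 1 week and not on day 1, held 5 GGAC words, of which the one nearest to its middle lay in the 3′ UTR, 244 nt after the stop codon (chr2:163570319-163570347).
Hnf4a: cttccactgcctGGACtcctctcaagttg

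More day 1 peaks than 1-week peaks lacked a counterpart at the other age. Of the day 1 peaks, 5978 overlapped a 1-week peak, which was 58.8% of the table. In the 1-week table, 6533 peaks (72.0%) had a counterpart on day 1. This left 4183 day 1 peaks without a 1-week overlap and 2537 1-week peaks without a day 1 overlap. The matches formed 6926 pairs, of which 185 joined different gene identifiers on the same strand. A day 1 peak overlapped more than 1 peak of the other table in 791 cases and at most 8, whereas a 1-week peak did so in 365 cases and at most 4. The unmatched peaks overlapped a peak of the other table on the opposite strand in 24 cases at day 1 and 33 cases at 1 week.

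Few peaks lay close to the limit of the rule. Only 72 pairs shared 10 bases or fewer, and the smallest overlap was 1 base, as in Rexo1 with folds of 14.7 at day 1 and 11.3 at 1 week, Mark2 with 28.7 and 5.7, and Dctn5 with 29.2 and 16. Just outside the rule, 16 pairs of unmatched peaks were separated by at most 30 bases and 75 by at most 100 bases. The closest of them were in Ssr2, with a gap of 28 bases and folds of 3.17 and 7.63, and Sys1, with a gap of 29 bases and folds of 2.69 and 7.27.

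Whether a peak had a counterpart moved with the strength of the peak in its own table. Strength is given here as −log10 of the deposited p-value of IP over Input. It was not scaled between the tables, whose depth is unknown, so a band need not mean the same strength in both. Among day 1 peaks under 3 on this scale, 21.6% of 1579 were shared, and the share increased in every band to 93.8% of the 2076 peaks over 50. In the 1-week table the weakest band already stood at 50.8% of 1595 peaks, and the share levelled off at 83.1% of 1291 peaks between 20 and 50 and 83.0% of 1643 peaks over 50. The order of the tables was thus opposite at the ends of the scale: weak 1-week peaks were shared more often than weak day 1 peaks, and the strongest 1-week peaks were shared less often than the strongest day 1 peaks.

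**Figure D1:**
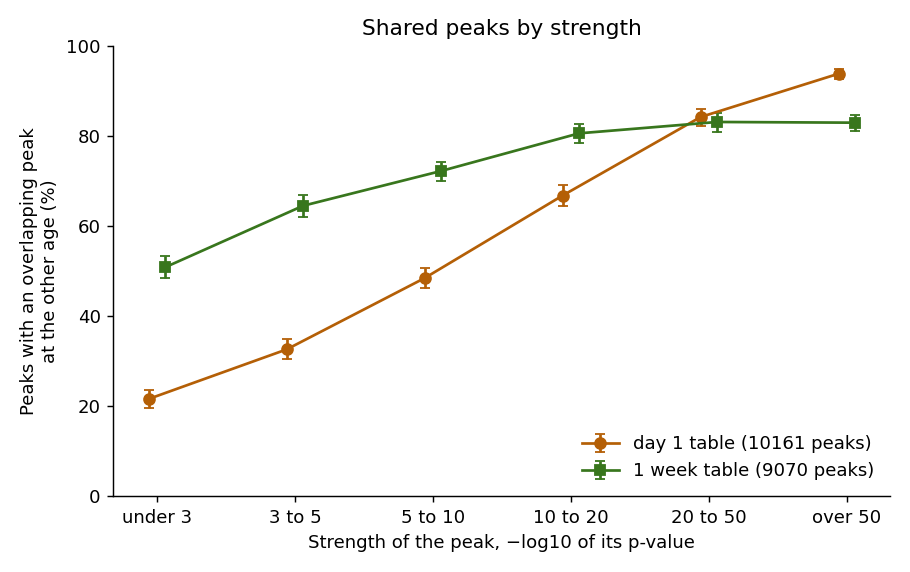
Percentage of peaks with an overlapping peak at the other age (y axis) in bands of −log10 p-value (x axis), for the day 1 table (circles) and the 1-week table (squares), with 95% Wilson intervals as bars. The day 1 line climbs from 21.6% to 93.8%, while the 1-week line starts at 50.8% and flattens at 83.0%.

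Peaks without a counterpart were narrower and less enriched than shared peaks in both tables. Fold enrichment is the deposited ratio of IP to Input, and its scale was not set to be equal between the tables. The median fold of day 1 peaks was 32.2 where shared and 11.6 where not, and that of 1-week peaks was 24.6 and 13.1. The values between the lower and the upper quartile ran from 14.5 to 73.6 in shared and from 7.71 to 19.6 in unmatched day 1 peaks, and from 12.4 to 58.2 and from 8.72 to 27.6 at 1 week. The upper tail of the unmatched peaks differed between the tables: the value that 10% of the peaks exceeded was a fold of 34.3 at day 1 and of 76.7 at 1 week. Median width in exonic bases was 360 nt for shared and 181 nt for unmatched day 1 peaks, and 270 nt and 181 nt at 1 week. A wider peak can share a base with another peak more readily, so the rule itself favours wider peaks among the shared ones. How much of the width difference this makes was not tested. An FDR above 0.05 was listed for 2.80% of unmatched day 1 peaks (interval 2.34% to 3.34%) and 6.35% of unmatched 1-week peaks (5.46% to 7.36%), and for 0.318% and 1.29% of the shared ones.

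**Figure D2:**
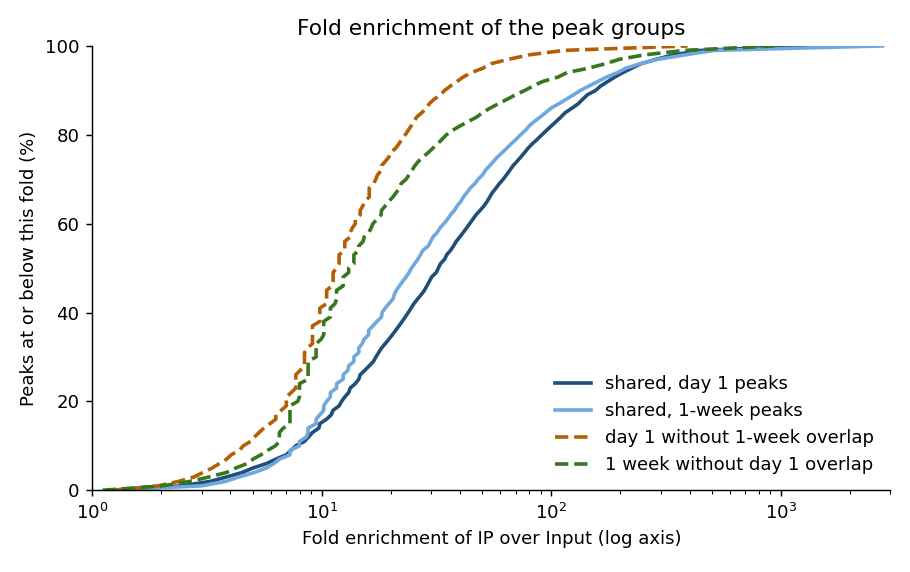
Cumulative percentage of peaks (y axis) at or below each fold enrichment of IP over Input (x axis, log scale) for shared peaks (solid lines) and peaks without a counterpart (dashed lines) of both tables. The dashed lines lie to the left, with medians of 11.6 at day 1 and 13.1 at 1 week against 32.2 and 24.6 for shared peaks, and the 1-week dashed line has the longer upper tail.

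Where 1 day 1 peak faced exactly 1 1-week peak, the 1-week peak was usually the narrower one and lay within the other. There were 4982 such pairs. The day 1 peak was wider in 3377 of them (67.8%), the 1-week peak in 1013 (20.3%), and the widths were equal in 592. The whole 1-week span lay inside the day 1 span in 2831 pairs (56.8%), the reverse held in 712, and both spans were identical in 389. The median overlap was 71.4% of the joint span. Median folds in these pairs were 29.8 at day 1 and 24 at 1 week, and the fold was higher at day 1 in 2704 pairs and at 1 week in 2265. Across the 4982 pairs the folds had a Spearman correlation of 0.586 and a Pearson correlation of 0.614 on the log2 scale. These are correlations across peaks, which share the libraries of each age and are not independent replicates.

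Peaks of every group gathered at the stop codon. With the peak middle placed on the longest coding transcript of the gene, 26.1% of shared day 1 peaks (24.9% to 27.2%) and 25% of unmatched day 1 peaks (23.6% to 26.4%) lay within 200 nt of the stop codon. At 1 week the shares were 25.2% (24.1% to 26.3%) and 24.4% (22.7% to 26.2%), so that the intervals of shared and unmatched peaks overlapped at both ages. The 5′ UTR was where the groups stood apart, with 3.48% of shared and 5.98% of unmatched middles at day 1 (intervals 3.03% to 3.99% and 5.27% to 6.79%) and 3.33% and 6.53% at 1 week (2.90% to 3.81% and 5.60% to 7.60%). At 1 week the 3′ UTR held 39.8% of shared middles and 36.4% of unmatched ones (38.6% to 41.0% and 34.5% to 38.4%). At day 1 it was the coding sequence that held fewer of the unmatched middles, 51.0% against 55.5% of the shared ones (49.4% to 52.6% and 54.2% to 56.8%). The strength of the peaks differed between these groups too, and its part in the differences of position was not tested as a whole. Within bands of strength, the class in the tables put more of the unmatched than of the shared peaks in the 5′ UTR in all bands but day 1 under 3 (5.49% of unmatched and 5.87% of shared peaks) and 1 week over 50 (2.14% and 2.93%). Between 5 and 10 the shares were 4.78% and 3.73% on day 1 and 6.01% and 2.56% at 1 week.

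**Figure D3:**
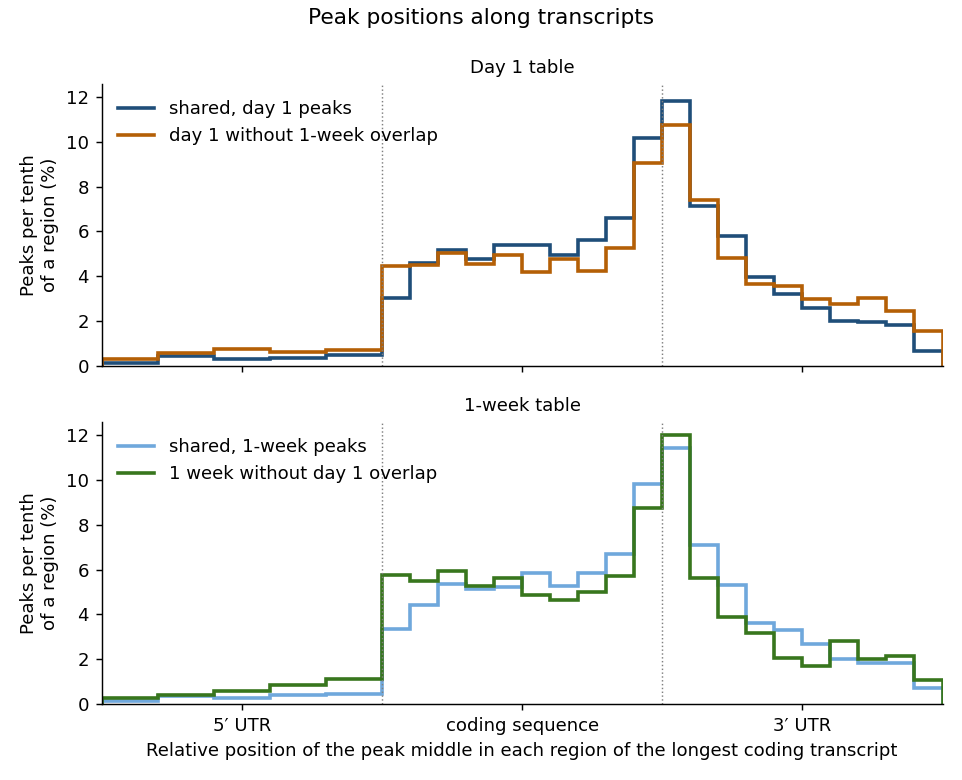
Position of peak middles along the longest coding transcript (x axis, each region scaled to the same length) as the percentage of peaks per 10% of a region (y axis; the 5′ UTR is drawn in wider bins scaled to the same unit), for shared and unmatched peaks of the day 1 table (top) and the 1-week table (bottom). All 4 lines have their maximum at the start of the 3′ UTR, next to the stop codon, and the unmatched peaks lie higher in the 5′ UTR and the first bin of the coding sequence.

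The GGAC word was about as dense in unmatched as in shared peaks. It was searched on the strand of the RNA alone and does not show a methylated site by itself. Some GGAC was present in 84.1% of shared day 1 peaks (83.1% to 85.0%) and 68.1% of unmatched ones (66.6% to 69.5%), and in 78.2% (77.2% to 79.2%) and 66.2% (64.3% to 68.0%) at 1 week, but the shared peaks were also wider. Per kilobase the 4 groups held 5.64, 5.64, 5.84 and 5.74 words, for shared and unmatched day 1 peaks and shared and unmatched 1-week peaks in this order. In the central 150 nt of peaks at least that wide, GGAC was found in 60.8% of shared and 58.6% of unmatched day 1 peaks (59.5% to 62.0% and 57.0% to 60.2%) and in 61.4% and 57.3% at 1 week (60.2% to 62.6% and 55.2% to 59.4%). All of these lay above the 44.5% of 190292 windows of 150 nt laid end to end on the longest coding transcripts of the called genes. The windows were not matched to the peaks by region or base content. The looser word DRACH (D is A, G or T, R is A or G, H is A, C or T) was found in 94.5% of the windows. In the peak centres it was found in 97.8% of shared and 97.5% of unmatched day 1 peaks, and in 98% and 96.8% at 1 week.

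Peaks shared during the first week were found again at later ages far more often than peaks of 1 age. The later tables were not used to form the groups, but the overlap with them was scored by the same 1-base rule. Shared peaks were wider, and a wider peak can meet a later peak more readily. The part of width in these shares was not tested. A peak of the 2-week table overlapped 74.1% of shared day 1 peaks (72.9% to 75.2%) but 24.6% of unmatched day 1 peaks (23.3% to 25.9%). It overlapped 73.3% of shared 1-week peaks (72.2% to 74.4%) and 35.7% of unmatched 1-week peaks (33.8% to 37.6%). For the 8-week table, which was the shortest with 4808 peaks, the shares were 35.4% and 8.63% from day 1 and 33.1% and 19.5% from 1 week. Neither later table held a peak over 2966 of the unmatched day 1 peaks (70.9%, 69.5% to 72.3%) and 1434 of the unmatched 1-week peaks (56.5%, 54.6% to 58.4%).

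The recovery at later ages also moved with strength, and the gap between shared and unmatched peaks remained within bands for the 2-week table. These bands did not match the groups by width. Between 20 and 50 on the −log10 p scale, 82.3% of shared and 41.1% of unmatched day 1 peaks were overlapped at 2 weeks (80.1% to 84.3% and 35.0% to 47.6%), against 89.9% and 71.1% from 1 week (88.0% to 91.6% and 64.8% to 76.7%). Over 50, the shares were 93.7% and 56.2% from day 1 and 95.7% and 67.5% from 1 week. At 8 weeks the strongest unmatched 1-week peaks came close to the shared ones, with 64.6% (58.9% to 70.0%) against 71.8% (69.4% to 74.2%), whereas the strongest unmatched day 1 peaks stood at 31.2% (23.9% to 39.7%) against 62.3% (60.1% to 64.4%). Unmatched peaks under 3 were overlapped at 2 weeks in 13.6% of cases from day 1 and 14.4% from 1 week.

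**Figure D4:**
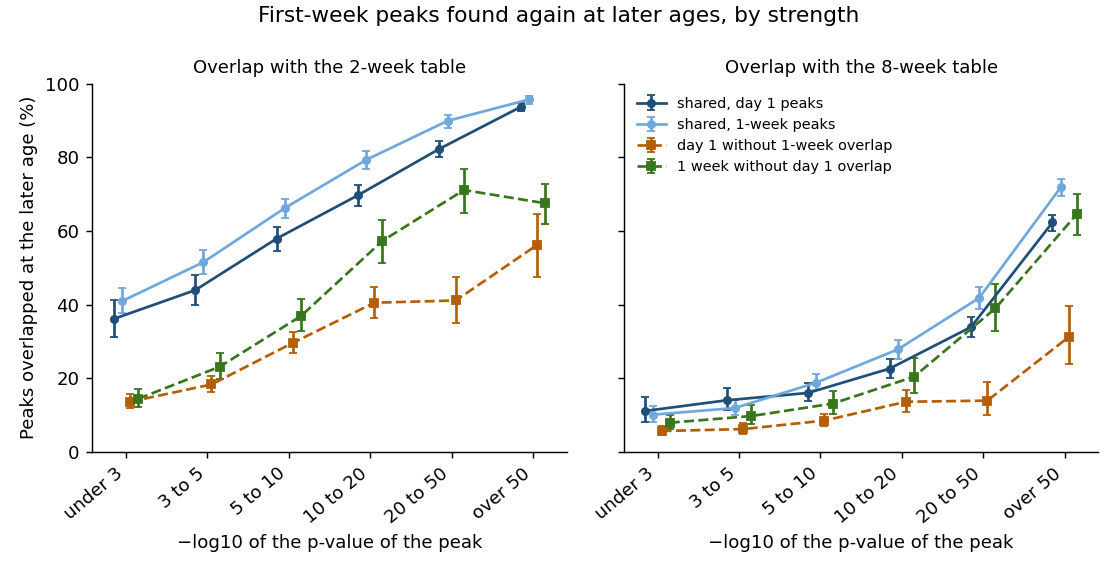
Percentage of first-week peaks overlapped by a peak of the 2-week table (left) and the 8-week table (right) on the y axes, in bands of −log10 p-value on the x axes, with 95% Wilson intervals. Shared peaks (solid) lie above unmatched peaks (dashed) of the same age at 2 weeks, and at 8 weeks the strongest unmatched 1-week peaks reach 64.6% against 31.2% for those of day 1.

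The strongest unmatched peaks were more numerous and had higher folds at 1 week than on day 1. Over 50 on the −log10 p scale, 128 day 1 peaks and 280 1-week peaks had no counterpart, with median folds of 39.4 and 120. Neither p-values nor folds were scaled between the tables, so these numbers describe each table on its own scale. The gene was nevertheless called at the other age for 60 of the 128 and 162 of the 280. A later table held 84 of the 128 (65.6%) and 247 of the 280 (88.2%), and the class was coding sequence for 55.5% and 67.5%. A p-value too small for the spreadsheet was listed for 54 peaks at day 1, of which 3 lacked a counterpart, all of them in Xist. At 1 week it was listed for 51 peaks, of which 12 lacked one, and a later table held 11 of these 12. The genes named in the next sentences were chosen after their values were seen. The 12 lay in the proliferation antigen Mki67 (fold 161), the chromatin regulators Nsd1 (144), Setd2 (185) and Asxl1 (92.3), the transcriptional repressors Zeb2 (152) and Nab1 (69.4), the ubiquitin ligase subunit Fbxw7 (90.9), the anion transporter Slc26a1 (369), the metabolic enzymes Glyctk (111) and Dmgdh (53.1), Lrrfip1 (69.9) and Gm20649 (452). Asxl1 was the one without a peak at this place in a later table. Nsd1, Setd2, Asxl1, Mki67, Slc26a1, Lrrfip1 and Glyctk had other peaks on day 1, whereas Zeb2, Fbxw7, Nab1, Dmgdh and Gm20649 had none. Other very strong unmatched 1-week peaks lay in Ncl, which encodes the nucleolar protein nucleolin (fold 33.3), Cald1 (54.1), Sec62, a part of the protein import machinery of the endoplasmic reticulum (180), and Msl2 (432). Serpina3k (42.7) belongs to a family of near-identical genes, so its reads may be split among copies.

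The unmatched day 1 peaks with the very smallest p-values included several in noncoding RNA, although 55.5% of the 128 were in coding sequence. These genes, too, were chosen after their values were seen. The peaks of CT010467.1, Gm42418 and AY036118 overlapped each other at 1 locus of chromosome 17, the second on the opposite strand, and had folds of 4.88, 4.79 and 4.62, and mt-Rnr1, a mitochondrial ribosomal RNA, had a fold of 40.6. Among coding genes, Sltm had a fold of 22.8, Ptms of 7.8, Senp6 of 116, the plasma protein gene Hrg of 16.2, Lpgat1 of 62 and Ccdc80 of 132. Of these, Sltm, Senp6, Lpgat1 and Ccdc80 had another peak at 1 week.

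Xist, the noncoding RNA that silences 1 X chromosome in female cells, set the tables apart. It had 6 peaks on day 1, with 3 of them among the strongest of the table, and 1 peak at 1 week, at 94.5-fold. A peak of Tsix, the antisense partner, was listed at nearly the same place as one of the day 1 Xist peaks and with the same width of 1019 nt, so that reads of both genes cannot be told apart there. Genes of the Y chromosome had no peak on day 1 and 2 peaks at 1 week, in Uty (fold 13.1) and Kdm5d (fold 13.8). Peaks on the X chromosome made up 2.33% of the day 1 table and 1.79% of the 1-week table. The part of the animals' sex in other differences was not tested.

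At the level of genes, 4509 of the 7354 genes with a peak at either age were called at both, which was 61.3%. Another 1827 genes were called on day 1 only (24.8%) and 1018 at 1 week only (13.8%). Most genes called at 1 age had a single peak, 85.2% of those of day 1 only and 87.1% of those of 1 week only, against 55.9% in the day 1 table for genes called at both ages. Unmatched peaks were spread over both kinds of genes. Of the 4183 unmatched day 1 peaks, 2026 lay in genes also called at 1 week and 2157 in genes called on day 1 only. Of the 2537 unmatched 1-week peaks, 1359 and 1178 did so. Genes called at both ages were called again in the 2-week table in 81.2% of cases (80.1% to 82.4%), those of 1 week only in 44.2% (41.2% to 47.3%) and those of day 1 only in 33.2% (31.1% to 35.4%). In the 8-week table the shares were 49.5%, 29.7% (26.9% to 32.5%) and 15.7% (14.1% to 17.4%).

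The protein-coding genes with the highest folds on day 1 only were Ppp4r2, a regulatory subunit of protein phosphatase 4, at 392-fold, Tdrd3, a Tudor domain protein, at 356-fold, and Arhgap29, a GTPase-activating protein, at 259-fold. They were followed by the synaptotagmin Syt14 (247), the chromatin protein Mphosph8 (235), the laminin chain Lamc1 (168), the haem A synthase Cox15 (165), the catalytic subunit of phosphoinositide 3-kinase Pik3ca (159), Sh3d19 (147) and Gxylt1 (135). At 1 week only, the highest were Adgrl2, an adhesion G protein-coupled receptor, at 755-fold, the nuclear receptor coactivator Ncoa2 at 678-fold and Tiparp, an aryl hydrocarbon receptor target, at 631-fold. Sgo1, a guardian of chromosome cohesion, had 597-fold, Exoc3 of the exocyst 562-fold and Paf1 of the transcription elongation complex of that name 537-fold, followed by Mtus1 (531), Fam46c (517), Msl2 (432) and Dyrk2 (429). These genes were picked by their folds, so the size of the folds is no result. Peaks at the same place were listed in a later table for 8 of the 10 day 1 genes, all but Syt14 and Mphosph8, and for 9 of the 10 1-week genes, all but Paf1.

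The 10 shared peaks of coding genes with the highest folds at both ages were as follows. Rreb1, a zinc finger transcription factor, had 693-fold on day 1 and 893-fold at 1 week, in exon 10 of 13. Zfp809, a zinc finger protein that silences retroviral elements, had 677- and 697-fold in its 3′ UTR. Apc, the scaffold of the β-catenin destruction complex, had 719- and 633-fold in its last exon, exon 16. Tnrc18 had 1110- and 486-fold, Bmp10, a ligand of the BMP family, 534- and 480-fold, and the nuclear receptor corepressor Nrip1 1010- and 479-fold. Heca, Dusp3, Ninj1 and Ltbr lay between 455- and 1060-fold at both ages. The Ninj1 peak had the same span in both tables. All 10 peaks were overlapped in the 2-week table by the day 1 peak's span, and 8 in the 8-week table, without Bmp10 and Ninj1.

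In 297 of the 4509 genes called at both ages (6.59%) no day 1 peak overlapped a 1-week peak of the gene. Ptpn11, which encodes the phosphatase Shp2, had its day 1 peak 2064 nt after the stop codon with a fold of 102 and its 1-week peak 191 nt after it with a fold of 48, both in the 3′ UTR. Kdelc2 had peaks 1550 nt after the stop codon on day 1 (30.1) and 162 nt after it at 1 week (89.4). In Syk, a kinase of blood cells, the day 1 peak was in the 5′ UTR (41.3) and the higher 1-week peaks were in the 3′ UTR (44.3 and 40.5). In Atp2b1, a calcium pump, the day 1 peak was in exon 6 (40.9) and the higher 1-week peak in the 3′ UTR, 121 nt after the stop codon (80). Ank2 had 3 day 1 peaks in coding exon 37 and 2 1-week peaks in the 3′ UTR. The direction was the other way in Mak16, Rapgef6 and Bmp2k, where day 1 peaks lay in the 3′ UTR (35.7, 46.9 and 39.2) and 1-week peaks in coding sequence (29.4, 32.7 and 198). Elmsan1 and Dmtf1 completed the 10 with the highest folds.

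Some shared peaks had very different ranks in the tables. Rank is the percentile of the fold among all peaks of a table, so it also depends on the other peaks listed, and the tables differ in their share of unmatched peaks of low fold. The median difference between the ages was 15.6 percentile points over the 4982 pairs, and it was over 50 points in 377 pairs. Among these, the rank was lower at 1 week in 277 pairs and higher in 100. Clint1, an adaptor of clathrin vesicles, went from 724-fold on day 1 to 7.35-fold at 1 week over the identical span, from percentile 99.9 to 12.1. The zinc finger gene Plagl2 had 448- and 5.53-fold, the mitochondrial exonuclease gene Mgme1 181- and 3.49-fold, Plce1 158- and 2.18-fold, and Micall2 137- and 6.18-fold. In the other direction, Inhbb, an activin subunit, had 9.11-fold on day 1 and 537-fold at 1 week in its 5′ UTR. Myo10 had 6.91- and 313-fold, Naa15 4.79- and 106-fold, the RNA-binding protein gene Mex3c 1.58- and 84.3-fold, and the imprinted gene Plagl1 5.83- and 92.3-fold over an identical span. The peaks were chosen for this difference, which is a description of 1 table per age. The values are of single peaks, and other shared peaks of Myo10 and Inhbb had 137- and 67.3-fold on day 1.

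The number of peaks per gene was the same at both ages in 2544 of the 4509 genes, higher on day 1 in 1064 and higher at 1 week in 901. Over all called genes, the epiplakin gene EPPK1 had 12 peaks on day 1 and 5 at 1 week, and the transcriptional coregulator gene Lcorl had 6 and 0. Arhgef5 had 7 and 2 and Nckap5 had 5 and 0. In the other direction, the cytoskeletal linker Plec had 9 and 16 peaks, Spen, a large corepressor that binds Xist, had 3 and 10, Rp1 had 0 and 7, Tacc2 had 2 and 7 and Phf3 had 2 and 7. Spen had 11 peaks in the 2-week table and 10 in the 8-week table, close to its number at 1 week.

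Liver transcription factors were called at both ages in 33 of the 37 members with a call (89.2%, against 61.3% of all called genes). Here and in the lists below, folds given for both ages without a named place or peak are the highest of each age. They can belong to different peaks of the gene. Hnf4a was called at 1 week only, with a fold of 54.7 and a −log10 p of 139, and was listed in the 8-week table at the same place but not in the 2-week table. With a gene-specific assay, the paper reports the mark on Hnf4a mRNA also at the age of the later table that did not list it. The missing call of Hnf4a at 2 weeks thus does not show that the mark was absent at that age. The paper does not give this assay for day 1, where the missing call cannot tell an absent mark from a missed one. Whether the caller missed Hnf4a at either age was not tested. Mlxipl, the carbohydrate response factor ChREBP, was called at 1 week only (18.2), in its 3′ UTR. The nuclear receptor genes Nr1h3 (LXRα, 5.25) and Nr1i2 (PXR, 7.71) were called on day 1 only, both with low folds. At a log10 FDR of at most -3 the list had 0 calls on day 1 only and 5 at 1 week only, and with the day 1 table at the length of the 1-week table it had 1 and 4. The pioneer factor Foxa2 had its main peak in the last exon at both ages, with 351-fold on day 1 and 224-fold at 1 week, and Foxa3 had 26.6- and 190-fold in coding sequence. Foxa1 kept 3 peaks at both ages, all overlapping, with highest folds of 45.5 and 50.2. Cebpa, which drives hepatocyte differentiation, had 309- and 361-fold at the stop codon, Cebpd 199- and 188-fold, and Cebpb had 36.6- and 402-fold in its 3′ UTR. Onecut2 had 163- and 793-fold at the same place in its 3′ UTR, and Onecut1 54.4- and 50.9-fold in its 5′ UTR.

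Among the nuclear receptors and their partners, Nr0b2 (SHP, a repressor of bile acid synthesis) had 22.1-fold on day 1 and 133-fold at 1 week. Nr1h4, the bile acid receptor FXR, had 23.8- and 31-fold next to its stop codon. Ppara, which controls fatty acid oxidation, had 10.1- and 17.9-fold for its shared peak, and Rxra, its dimer partner, had 241- and 129-fold. Klf10 had 290-fold around its stop codon on day 1 without a counterpart, and a weaker shared peak with 13.3- and 10.5-fold. Prox1, needed for hepatoblast growth, had a call at 1 week alone in exon 2 (40.4) beside its shared 5′ UTR peak (15.8 and 43.1). Gata4, Nr1i3 (CAR) and Tbx3 were called at both ages without an overlapping peak. In Gata4 the day 1 peaks were in the 5′ UTR (23.4) and 874 nt after the stop codon (7.01), and the 1-week peaks 248 nt (17.4) and 10 nt (7.27) after it. The other factors had overlapping peaks at both ages, with highest folds for Xbp1 (20.8 and 24.4), Zhx2 (21.7 and 58.9), Cited2 (216 and 332), Nr2f2 (119 and 111), Klf9 (68 and 123), Gata6 (108 and 69.1), Foxm1 (68 and 34.9) and Creb3l3 (5.43 and 7.39). Ppargc1a, a coactivator of gluconeogenesis, had 53.9- and 51.6-fold, the adipogenic receptor gene Pparg 5.14- and 13.8-fold, Klf6 72.2- and 70.5-fold, Zbtb20 48.3- and 57.4-fold, Nr2f1 9.81- and 13.8-fold and Nr2f6 70.1- and 83.6-fold. In Nr1i3 the folds were 2.92 on day 1 and 8.54 and 7.18 at 1 week, and in Tbx3 9.81 on day 1 and 29.3, 17.4 and 13.1 at 1 week.

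Of 24 genes of the m6A machinery, 14 were called at either age, 9 at both, 4 on day 1 only and 1 at 1 week only. These shares of 64.3%, 28.6% and 7.14% stood beside 61.3%, 24.8% and 13.8% of all called genes. Neither Mettl3 nor Mettl14 had a peak. Among the adaptors that place the methyltransferase, Rbm15 had 297-fold on day 1 and 308-fold at 1 week in its large first exon, Rbm15b had 135- and 475-fold as its highest values, Zc3h13 had 56- and 48-fold, and Virma 30.8- and 32-fold at a shared place in exon 10. Wtap was called on day 1 only, with 74.3-fold in its 3′ UTR, at a place that was listed again in the 2-week table. Of the demethylases, Fto had 201-fold on day 1 and 35.6-fold at 1 week in exon 3, and Alkbh5 6.46-fold on day 1 only. Of the readers, Ythdf1 had 159- and 47.3-fold and Prrc2a 54.6- and 188-fold. Ythdc1, the nuclear reader, had 59.5-fold on day 1, a peak that overlapped those of 1 week at 68.3- and 55.3-fold, and a further 1-week peak at 360-fold. Igf2bp3, a reader of fetal tissues (6.31), and Hnrnpa2b1 (7.01) were called on day 1 only with low folds, and Ybx1 at 1 week only (36.4) in its 5′ UTR. Cbll1 had 20.3-fold on day 1 and 27.6-fold at 1 week.

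Of 25 hepatocyte genes, 11 were called at either age, 10 of them at both (90.9%, beside 61.3% of all called genes). Albumin, transthyretin and transferrin (Alb, Ttr and Trf) had no peak, whereas the apolipoprotein genes Apob and Apoa1, the fibrinogen genes Fga, Fgb and Fgg, Hp, Tat, Cp, Itih1 and Itih3 had peaks at both ages. Apob had 5 coding peaks of 3.51- to 14.7-fold on day 1 and 5 of 4.83- to 36.5-fold at 1 week, and each 1-week peak overlapped one of day 1. Itih1 had 108- and 24.6-fold next to its stop codon. Asgr2 was called at 1 week only (3.44).

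Genes of red blood cell formation had calls on day 1 more often than at 1 week, 21 against 11 of 35. Of the 22 called at either age, 10 were called at both, 11 on day 1 only (50%, beside 24.8% of all called genes) and 1 at 1 week only. Called on day 1 only were, among others, the transcription factor genes Bcl11a, with 4 peaks of up to 129-fold, Gfi1b (22.1), Gata2 (9.11), Gata1 (4.2) and Lmo2 (4.76), the ubiquitin ligase genes Trim58 (28.7) and Trim10 (3.35), the mitochondrial glycine carrier gene Slc25a38 (20.3), the transferrin receptor gene Tfrc (2.69) and Fech (3.84), which makes haem. Of these 11, Fech alone was called in the 2-week table and none in the 8-week table. Klf1, a master regulator of globin genes, went the other way, with 218-fold at 1 week and no peak on day 1. Tal1, Sptb and Add2 were called at both ages in different places, with highest folds of 8.98 and 169, 1.47 and 267, and 8.06 and 19.6. At a fold of at least 5 in both tables the list had 6 calls on day 1 only and 3 at 1 week only. The globin genes Hba-a1, Hbb-bs and Hbb-bt had no peak at either age.

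For other cells of the blood and the liver the counts, as those of the lists after them, stand beside 61.3% of all called genes at both ages, 24.8% on day 1 only and 13.8% at 1 week only. All 8 called genes of B cells and other lymphocytes, among 20 listed, were called at both ages, with Cd79b at 221- and 49.4-fold, Ebf1 at 18.9- and 237-fold and the recombinase gene Rag1 at 85.5- and 60.3-fold. At a log10 FDR of at most -3, 5 of them remained called at both. Of 10 genes of neutrophils and megakaryocytes, 3 were called at both ages, 5 on day 1 only, led by the platelet glycoprotein gene Gp9 (49), and 2 at 1 week only, Mpo (4.12) and Itgam (8.72). Of 11 macrophage genes, 5 were called at both, among them the Kupffer cell lectin Clec4f (116 and 382), 3 on day 1 only and 3 at 1 week only, led by C1qb (84.6). Of 15 endothelial genes, 11 were called at both ages, such as Bmp2 (196 and 254), Mmrn2 (67.3 and 170) and Kdr (124 and 70.5), while the Wnt enhancer gene Rspo3 (30.8) and the ligand gene Wnt2 (20.3) were called on day 1 only. Of 12 stellate cell genes, 9 were called at both, with Pdgfrb at 380- and 79.8-fold, and 3 at 1 week only, Pdgfra (57.4), Hgf (17.4) and Rgs5 (14.5). Of 9 cholangiocyte genes, 5 were called at both.

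**Figure D5:**
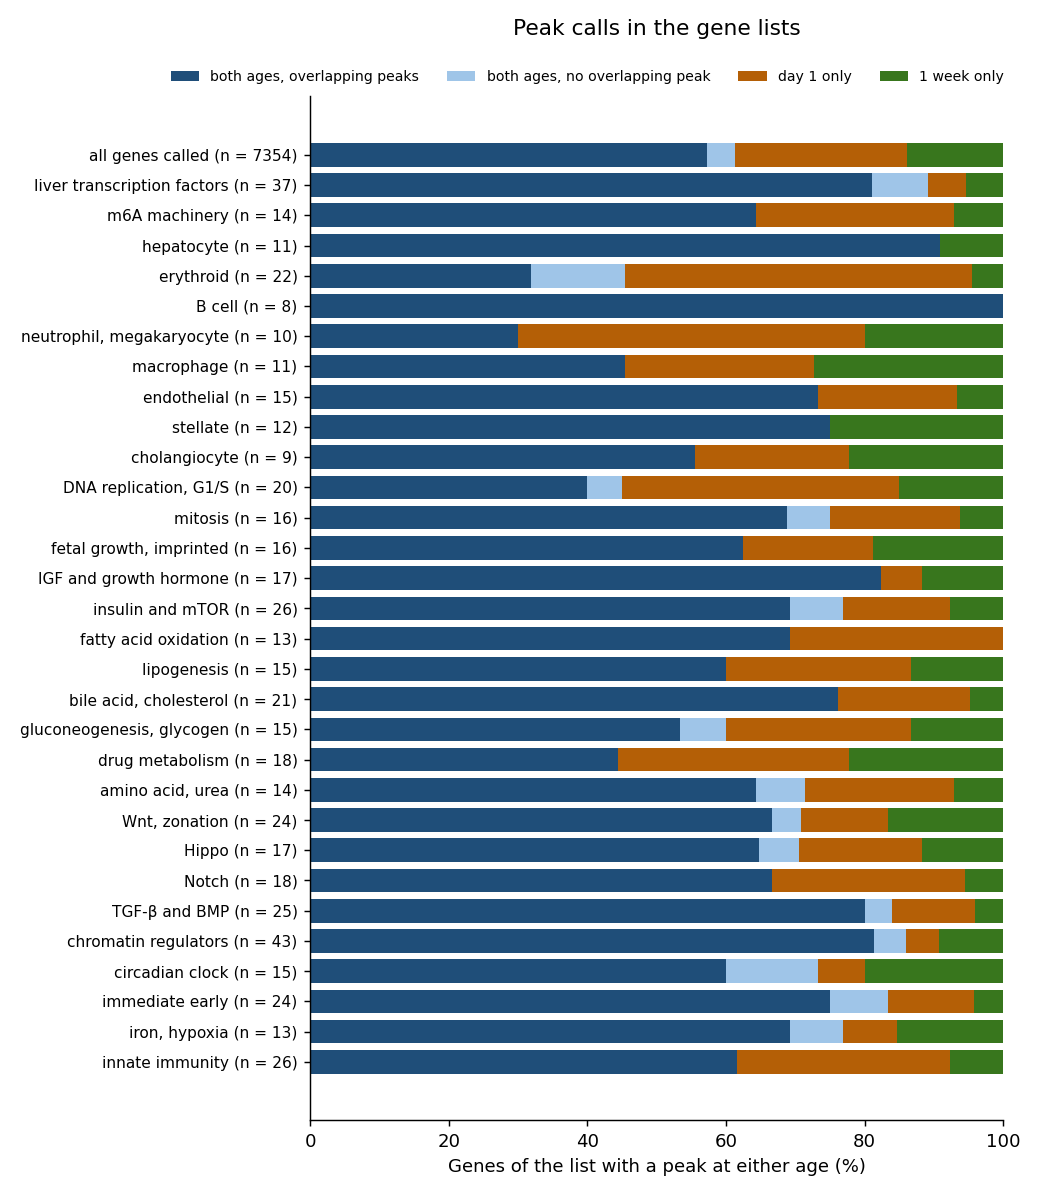
For each gene list, the percentage of genes with a peak at either age (x axis, n in the labels) that were called at both ages with overlapping peaks, at both without one, on day 1 only or at 1 week only. The top bar shows all 7354 called genes, and the B cell list also holds genes of other lymphocytes. The erythroid list and that of neutrophils and megakaryocytes each have 50% on day 1 only, against 24.8% of all genes. DNA replication has 40%, drug metabolism 33.3%, and fatty acid oxidation and innate immunity 30.8% each. The lists differ in size from 8 to 43 genes.

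Genes of DNA replication and the G1/S step were called on day 1 only in 8 of 20 cases (40%), at both ages in 9 and at 1 week only in 3. The 8 were the licensing factor gene Cdc6 (54.6), the Rb family gene Rbl2 (52.5), E2f2 (13.3), Ccnd1 (9.11), Cdc25a (7.71), Mcm6 (6.28), Cdkn1b (4.73) and Rrm2 (1.88). The 3 of 1 week were 2 inhibitors of cyclin-dependent kinases, Cdkn1c (15.3) and Cdkn1a (13.1), and Ccne2 (5.94). Genes of mitosis were called at both ages in 12 of 16 cases. Cenpf had 7 peaks at each age, with highest folds of 431 and 341, Aspm had 4 and 7 peaks with 321- and 209-fold, and Birc5 (18.9), Aurkb (14) and Kif4 (9.81) were called on day 1 only. Kif20b was called at 1 week only (35.6).

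Genes of fetal growth and imprinting were called at both ages in 10 of 16 cases, with Plagl1 at 455- and 420-fold as its highest values, Zim1 at 157- and 172-fold and Peg10 at 115- and 34.2-fold. Igf2, the main fetal growth factor, had low folds of 1.86 and 3.2. Sall4 (48.3), Igf2bp3 (6.31) and Gpc3 (3.83), known from fetal liver, were called on day 1 only, and H19 (1.36), Igf2r (2.54) and Cdkn1c at 1 week only. In the growth hormone and IGF axis, 14 of 17 genes were called at both ages, led by Egfr (241 and 182) and Prlr (79.9 and 211). Ghr, the growth hormone receptor gene, was called on day 1 only, with 107-fold and a −log10 p of 357, and its place was listed again at 2 and 8 weeks.

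In insulin and mTOR signalling, 20 of 26 genes were called at both ages. Irs2, an adaptor of the insulin receptor, had 5 day 1 peaks of up to 546-fold and 4 1-week peaks of up to 541-fold. Rps6kb1, the S6 kinase gene, had 595- and 300-fold. Pik3ca (159), Pdpk1 (42.4), Trib3 (28) and Eif4ebp1 (19.6) were called on day 1 only, and the forkhead genes Foxo3 (60.7) and Foxo4 (29.1) at 1 week only. Foxo1 was called at both ages without an overlap, with 188-fold on day 1 and 18.2-fold at 1 week.

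The metabolic lists held more calls on day 1 only than at 1 week only, as did all called genes. For fatty acid oxidation and ketone bodies the counts were 9 of 13 at both ages, 4 on day 1 only, led by Crat (27.3), and 0 at 1 week only. Pdk4, which turns cells from glucose to fat as fuel, had 28.7- and 122-fold, and Lpin2 had 55- and 118-fold. For fat synthesis 9 of 15 genes were called at both ages, with Acaca at 113- and 49.4-fold and Agpat2 at 35.6- and 114-fold. Fatty acid synthase, Fasn (6.31), and Fabp1 (2.39) were called on day 1 only and Dgat1 (11.6) at 1 week only. In bile acid and cholesterol metabolism 16 of 21 were called at both ages. Cyp7a1, the rate-limiting enzyme of bile acid synthesis, had 38.2- and 37.1-fold, and Cyp8b1 87.6- and 177-fold. Klb, a receptor partner for Fgf15, had 104- and 437-fold at a shared place. Cyp27a1 (43.4), Abcc3 (10.5), Scap (10.5) and Abcg5 (8.06) were called on day 1 only.

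For glucose and glycogen metabolism, 9 of 15 genes were called at both ages. The glycogen-targeting subunits of protein phosphatase 1 had the highest folds, with Ppp1r3c at 251- and 919-fold and Ppp1r3b at 345- and 607-fold. The CREB coactivator gene Crtc2 (44.8) and Hk2 (25.2) were called on day 1 only, Ppp1r3g (21.1) and Hk1 (10.9) at 1 week only. In drug metabolism the counts were 8 of 18 at both ages, 6 on day 1 only, led by Cyp2d9 (74.3), a member of a family of near-identical genes, and 4 at 1 week only, led by Cyp4f14 (21.1). Cyp1a2 had 36.9- and 45.1-fold and Ugt2b1 72.2- and 85.2-fold. For amino acids and the urea cycle, 10 of 14 genes were called at both ages, with Nags, which makes the activator of the cycle, at 112- and 72.7-fold and Arg1 at 3.04- and 7.28-fold.

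In the signalling lists the counts at both ages were 17 of 24 for Wnt and zonation, 12 of 17 for Hippo, 12 of 18 for Notch and 21 of 25 for TGF-β and BMP (70.8%, 70.6%, 66.7% and 84.0%, beside 61.3% of all called genes). Among Wnt genes, Bcl9l had 248- and 625-fold, Lgr4 135- and 740-fold and Axin2, a target of the pathway, 35.7- and 170-fold. Axin1 (68.3) and the coreceptor genes Lrp6 (46.5) and Lrp5 (10.7) were called at 1 week only. Lats2, a Hippo kinase gene, had 434- and 303-fold, and Taok1 was called at 1 week only (111). Of the Notch genes, Notch2 had 81.3- and 167-fold, and Pofut1 (56), Dll1 (54.6), Notch4 (14), Rbpj (9.11) and Poglut1 (9.11) were called on day 1 only. Among TGF-β and BMP genes, Bmpr1a had 221- and 155-fold, Acvr2a 39- and 291-fold and Smad7, an inhibitor, 161- and 43.6-fold. Acvr2b (23.8), Smad4 (23.1) and Tgfb3 (19.6) were called on day 1 only and Smad5 (19.6) at 1 week only.

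Chromatin regulators were called at both ages in 37 of 43 cases (86.0%, beside 61.3% of all called genes). The acetyltransferase genes Ep300 and Kat6a had 814- and 449-fold and 105- and 630-fold. The demethylation enzymes Tet3 and Tet2 had 714- and 132-fold and 661- and 292-fold, and the histone methyltransferase gene Setd1b had 69.4- and 474-fold. Kdm1a (13.3) was among those called on day 1 only. Suz12 (24) and Ezh2 (8.72), subunits of a Polycomb complex, Kdm7a (57.4) and Smarca2 (16) were called at 1 week only. In the circadian clock list 11 of 15 genes were called at both ages, Per3 (26.2), Dbp (22.2) and Nr1d1 (11.6) at 1 week only and Rora (6.87) on day 1 only. Bhlhe40 had 77.9- and 309-fold and Nr1d2 65.2- and 214-fold.

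Immediate early genes were called at both ages in 20 of 24 cases, with Jun at 260- and 497-fold, Dusp1 at 358- and 606-fold and Klf2 at 240- and 521-fold. Btg2 had 9.11-fold on day 1 and 363-fold at 1 week in different places, and Mafk (71.5) was called on day 1 only. For iron and hypoxia 10 of 13 genes were called at both ages, led by Vegfa (123 and 33.2), Egln1 (110 and 37.1) and the iron sensor Tfr2 (32.8 and 79.6). In innate immunity 16 of 26 were called at both ages, such as Il6ra (133 and 379), Il1r1 (118 and 325) and Traf6 (163 and 245). Another 8 were called on day 1 only, led by Traf3 (42) and Il1rap (23.1), and 2 at 1 week only, among them Nfkb2 (12.4).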

How the data were processed

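Liver RNA from C57BL/6J wild types was sequenced after m6A-RIP, and groups were taken from the sample titles. According to the methods and the submitters' processing notes, HISAT2 aligned the reads to mm10, exomePeak compared IP with Input to find peaks, and HOMER searched motifs. The deposited tables held 1 p-value per peak, its log10 and the log10 of the FDR (used as a score, since the p-value column rounds to 0), and the authors' fold enrichment, a ratio of IP to Input. A log10 that the spreadsheet had lost was taken as infinite, which concerned 54 peaks at day 1 and 51 at 1 week. Gene names turned into dates, 9 and 12 peaks, were restored through the Ensembl identifier.

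Spans were counted from 0 in the files, as 99.5% of 666 day 1 block junctions then fell on exon edges of GENCODE M21. Overlaps used the whole span, and widths, motifs and positions used the exon blocks. Positions were taken on the longest coding transcript of GENCODE M21 (98.1% and 98.7% of the peaks of coding genes placed), and sequence was read from the GRCm38 genome, the assembly of mm10. No difference between ages was tested, because each age had 1 table. The overlap code was tested on simulated data. Python 3.11.15, NumPy 2.4.6, pandas 2.3.3 and SciPy 1.17.1 were used.

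The comparison, the gene lists and the rules for named genes were chosen with earlier results of these data known. By rule, the text names each called liver transcription factor and m6A gene, up to 4 members of each other list called at 1 age and up to 2 called at both with the highest folds, the 10 coding genes with the highest folds in each group, those with the largest change of rank or of number of peaks, and the pairs next to the limit of overlap. Further members of lists were named after their values were seen, to account for a count. Some genes that these rules select are not reported here. The table for 4 weeks repeats that for 2 weeks and was not used.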

Additional observations from a re-analysis of the deposited data

How the results depend on the processing

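No paired analysis was possible because each age had 1 table of peaks. The 1-base rule bore most on the overlap. With 50% of both peaks shared, 45.3% of day 1 and 50.7% of 1-week peaks had a counterpart and 993 genes called at both ages had none. With gaps of up to 100 bases allowed, the shares were 60.5% and 73.6%. With the day 1 table at the length of the 1-week table they were 63.5% and 69.8%. The 1-week share was 73.7% at a log10 FDR of at most -3 and 70.5% at a fold of at least 5, and 195 genes called at both ages had no overlapping peak at that FDR. Genes called at 1 age only stayed within 1.5 times under every alternative.

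GGAC in shared day 1 peaks was found in 86.9% at that FDR and 85.3% at that fold, and in shared 1-week peaks in 80.4% with the 50% rule, 81.9% at that FDR and 79.2% at that fold. In unmatched day 1 peaks it was 72.7% with the 50% rule, 74.8% at that FDR, 70.6% at that fold and 70.6% with tables of equal length, and in unmatched 1-week peaks 69.1% with the 50% rule and 74.9% at that FDR.

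A peak of the 2-week or 8-week table overlapped 77.2% of shared day 1, 76.4% of shared 1-week, 29.1% of unmatched day 1 and 43.5% of unmatched 1-week peaks. In this order the shares were 67.2%, 69.7%, 25.1% and 40.7% when every overlap asked for 50%, and 85.0%, 84.2%, 38.6% and 55.9% at a log10 FDR of at most -3. At a fold of at least 5, the unmatched peaks had 30.7% and 45.6%. With tables of equal length, shared day 1 peaks had 78.6%, shared 1-week peaks 77.5% and unmatched day 1 peaks 32.1%. Both shared groups lay above both unmatched groups in each of these, while the order of the shared groups turned with the 50% rule. The cause of the changes was not tested. Of 270 counts over gene lists under alternatives, 42 moved by over 1.5 times.

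Depth is unknown, since the tables hold no read counts, and no interval of a fold can be given.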
